A study of Mus musculus with 18 samples.

Results

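The cadherin and protocadherin superfamily was followed through the m6A peaks that differed between treatments in mouse uterus on day 5 of pregnancy. A peak was counted as a member when the annotation placed it in the transcript of such a gene, or when its centre lay within the assigned gene, and the gene was a Cdh, Pcdh, Fat, Dchs or Celsr gene. The rule took 175 of 40929 peaks, which fell on 59 of the 96 family genes in the mouse RefSeq annotation (GRCm38.p6). The share of all annotated genes that held a peak was not computed, so this count and those by subfamily below have no background. The C-type protocadherins of the alpha and gamma clusters were not counted, and their 11 peaks are given separately.

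Pregnant wild-type ICR females, 8 weeks old, were compared under 3 treatments. Veh mice received vehicle by intraperitoneal injection on days 1 to 4 of pregnancy. LPS mice received the same daily vehicle and, on days 3 and 4, lipopolysaccharide at 0.5 mg/kg, 30 min after the vehicle. Lipopolysaccharide is the outer membrane component of Gram-negative bacteria that triggers inflammation. Mel+LPS mice received the same lipopolysaccharide and, on days 1 to 4, melatonin at 10 mg/kg, dissolved in saline with ethanol. RNA of the uterus was taken on day 5, with 3 input and 3 immunoprecipitated libraries per treatment (18 libraries). The immunoprecipitated libraries held about 100-nt RNA fragments pulled down with an antibody against N6-methyladenosine (m6A), a methyl mark on adenosines inside mRNA that is placed by the METTL3-METTL14 enzyme complex and read by YTH proteins. Whole uterus contains luminal and glandular epithelium, stroma, muscle, vessels and immune cells. In such bulk RNA, fewer cells of a type and less RNA per cell cannot be told apart, and a difference in m6A per transcript was not separated here from a difference in how much of the transcript was present. The tables list differential peaks only, so the tissue label was not checked against marker genes.

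Cadherins are calcium-dependent adhesion receptors of the cell surface. Classical cadherins join neighbouring cells through adherens junctions and bind catenins inside the cell, and E-cadherin (Cdh1) of the uterine epithelium is known to be remodelled around embryo attachment. The giant Fat and Dchs cadherins bind each other between neighbouring cells and act in planar polarity and growth control, while the Celsr proteins carry planar polarity across cell borders. Protocadherins fall into scattered genes and the alpha, beta and gamma clusters. Each clustered gene has a long variable exon that encodes the whole extracellular part. In the alpha and gamma clusters this exon is spliced to shared constant exons. m6A is known to occur mainly in long internal exons and around stop codons, in the motif DRACH (where D stands for A, G or T, the letter R for A or G, and H for A, C or T).

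Peaks of Pcdh17, Fat1 and Celsr2 that lay wholly in coding sequence are shown first, since the results on these genes turn on them. Exon 4 of Cdh1, which holds the start of the Cdh1 peak, is shown with them. Sequences are from GENCODE M21 transcripts (GRCm38), written 5′ to 3′ on the transcript strand, with DRACH matches in capitals.
Pcdh17 exon 1, chr14:84448369-84448588, plus strand: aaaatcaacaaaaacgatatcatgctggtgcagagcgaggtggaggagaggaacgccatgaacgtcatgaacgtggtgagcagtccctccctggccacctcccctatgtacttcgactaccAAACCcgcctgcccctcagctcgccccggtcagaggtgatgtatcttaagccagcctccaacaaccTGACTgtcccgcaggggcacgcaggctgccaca
Fat1 exon 11, chr8:45025172-45025293, plus strand: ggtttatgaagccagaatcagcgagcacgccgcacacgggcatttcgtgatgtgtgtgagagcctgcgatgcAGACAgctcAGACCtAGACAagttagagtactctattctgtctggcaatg
Fat1 exon 2, chr8:44953182-44953364, plus strand: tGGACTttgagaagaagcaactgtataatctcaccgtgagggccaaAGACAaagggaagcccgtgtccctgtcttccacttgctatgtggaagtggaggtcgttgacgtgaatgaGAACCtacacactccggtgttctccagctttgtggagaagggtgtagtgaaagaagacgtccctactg
Celsr2 exon 1, chr3:108413009-108413137, minus strand: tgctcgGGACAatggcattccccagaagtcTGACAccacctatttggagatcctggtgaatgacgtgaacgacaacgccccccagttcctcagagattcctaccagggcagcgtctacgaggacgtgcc
Celsr2 exon 1, chr3:108412692-108412910, minus strand: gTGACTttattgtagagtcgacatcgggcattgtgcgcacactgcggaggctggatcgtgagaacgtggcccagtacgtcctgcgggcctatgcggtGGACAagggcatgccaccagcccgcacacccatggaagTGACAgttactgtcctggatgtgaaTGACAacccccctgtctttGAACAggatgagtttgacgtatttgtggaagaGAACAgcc
Celsr2 exon 1, chr3:108412348-108412473, minus strand: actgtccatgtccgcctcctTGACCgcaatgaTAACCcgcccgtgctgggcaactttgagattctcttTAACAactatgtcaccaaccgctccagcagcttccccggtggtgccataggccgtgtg
Cdh1 exon 4, chr8:106653507-106653650, plus strand: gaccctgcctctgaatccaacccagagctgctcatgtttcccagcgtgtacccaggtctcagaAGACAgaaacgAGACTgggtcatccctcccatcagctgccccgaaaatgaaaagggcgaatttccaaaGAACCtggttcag
The Pcdh17 peak held 2 DRACH matches in 220 bases, and the 122-base Fat1 peak in exon 11 held 3. The middle Celsr2 peak, of 219 bases, held 6. The flanking Celsr2 peaks of 129 and 126 bases held 2 and 3. The exon 4 sequence of Cdh1 held 3 matches in 144 bases. Only its last 16 and 14 bases lay in the Cdh1 peaks described below, with 1 match in each. The intronic rest of these peaks is not printed.

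Each peak came with 1 value per comparison, the log10 likelihood ratio (LLR) that the authors' deposited tables give for a difference in signal between both treatments. A larger LLR means that different signal levels described the peak better than a common level. It carries no size of change and no spread between mice, so no difference below was tested over replicates. The 4 tables list peaks with more signal after LPS than after Veh (LPS-up), with less (LPS-down), with more signal after Mel+LPS than after LPS alone (Mel-up), and with less (Mel-down). Both comparisons use the same LPS libraries, so a position listed in both is no independent repeat. The LPS-down table was used for chromosomes 1 to 9 only. It therefore gives no information on the clustered protocadherins, Cdh2, Cdh18, Celsr1, Pcdh12 or Pcdh17.

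Member peaks numbered 60 LPS-up, 17 LPS-down, 62 Mel-up and 36 Mel-down. Among the 59 member genes, 40 (67.8%) held an LPS-up peak, beside 46.7% of all 11895 genes with a peak in any table. On chromosomes 1 to 9, 11 of 17 member genes (64.7%) held an LPS-down peak, beside 48.0% of all genes there. In Mel+LPS vs LPS, 35 member genes (59.3%) held an up peak and 30 (50.8%) a down peak, beside 55.6% and 37.6% of all genes. Member genes also held somewhat more peaks each, 2.97 on average against 2.44 over all genes, and the part of peak number in these shares was not tested. The base of genes with a peak in any table takes in LPS-down peaks on chromosomes 1 to 9 only. On those chromosomes lay 6566 of all genes and 17 member genes, so the 2 bases differ in make-up. The part of this in the shares was not tested either. The balance of directions lay near that of all peaks. Up peaks made up 21 of 38 member peaks (55.3%) in LPS vs Veh on chromosomes 1 to 9, beside 49.8% of all peaks. They made up 62 of 98 (63.3%) in Mel+LPS vs LPS, beside 59.3%.

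The values of most member peaks were low. The median LLR of members was 2.52 in LPS-up (range 1.16 to 101.7), beside 2.88 for all peaks of that table. It was 3.63 in LPS-down (1.42 to 15.9), beside 2.65. In Mel+LPS vs LPS the medians were 2.57 for up peaks (1.05 to 18.1) and 3.85 for down peaks (1.16 to 102.8), beside 2.17 and 3.09. The tables hold many repeated values. The commonest LPS-up value, 3.78, stood at 10 of 60 member peaks (16.7%) and 12.1% of all peaks. The commonest Mel-down value, 3.85, stood at 8 of 36 member peaks (22.2%) and 14.9% of all peaks. Of the member peaks at these 2 values, 6 of 10 and 5 of 8 lay in introns. The commonest values were 3.63 in LPS-down, at 11.8% of member peaks and 11.7% of all, and 5.42 in Mel-up, at 3.23% and 3.57%. Other values also repeated. The Mel-down value 6.29 stood at member peaks of Celsr2, Pcdhb2 and Pcdhga11, and at Fzd3, a gene outside the family. The LPS-up value 6.19 stood at Pcdhga11 and at Prickle2, also outside it.

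**Figure D1:**
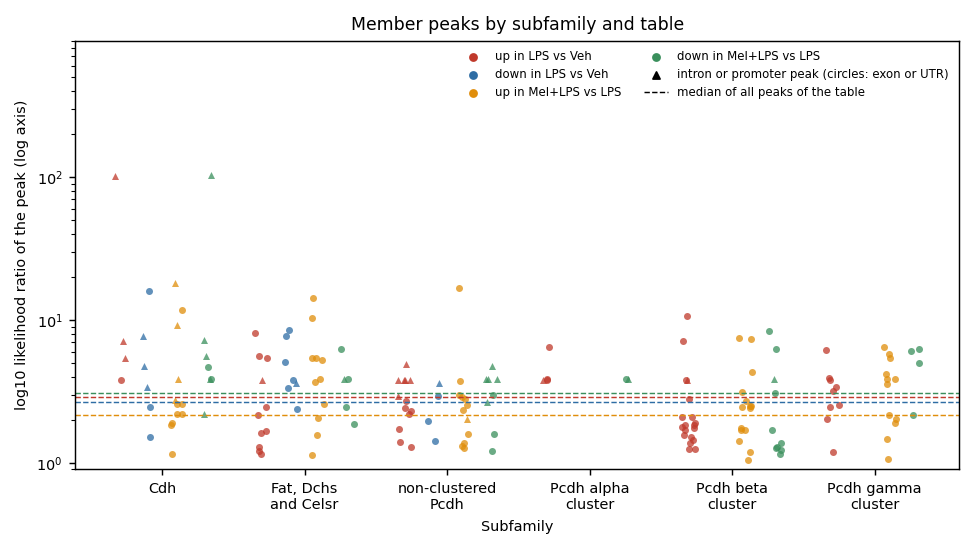
Each point is a member peak, placed by subfamily on the x axis and by its LLR on a log y axis, coloured by table; dashed lines are the medians of all peaks of each table. Points above 100 are the intron 1 position of Cdh20, and most other points lie between 1 and 10.

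The classical and related Cdh genes held 29 peaks on 11 of 23 annotated genes. Of the 29, 15 (51.7%) lay in introns, beside 24.6% of all peaks tied to a gene in the same way. Cdh1, which encodes E-cadherin, held 1 LPS-down peak with an LLR of 15.9, the highest member value of that table. It held 1 Mel-up peak with an LLR of 11.8 at nearly the same position. The peaks spanned chr8:106653635-106653734 and chr8:106653637-106653739. Of these, 16 and 14 bases lay on exon 4, printed above, and the rest in the intron that follows. No Cdh1 peak was listed in the other 2 tables.

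Cdh3 (P-cadherin), the neighbour of Cdh1 on chromosome 8, showed the same pair of tables at separate positions. Its exon 14 peak was LPS-down with an LLR of 2.45, and exons 6 and 7 held Mel-up peaks at 2.19 and 1.91. Cdh5 (VE-cadherin), the junction cadherin of vascular endothelium, held 1 peak, at exon 9 and Mel-up, with an LLR of 2.57. Cdh2 (N-cadherin) held a peak up at exon 14 (LLR 2.18) and a peak down in intron 10 (LLR 2.20) in the same comparison. Low values of about 2 thus stood behind the Cdh2, Cdh3 and Cdh5 peaks.

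Cdh11, a mesenchymal cadherin of stromal cells, held peaks in all 4 tables. Its exon 8 peak was LPS-down (LLR 1.52) and Mel-up (LLR 2.57), and further Mel-up peaks lay at exon 7 (1.85) and exon 6 (1.16). A transcript of the unclassified locus Gm45257 overlaps the exon 8 peaks on the same strand. The Cdh11 intron 1 values were higher, with 7.72 at an LPS-down position. Another intron 1 position, chr8:102764381-102764580, was LPS-up at 5.40 and Mel-down at 5.59. Cdh13 (T-cadherin), which lacks a transmembrane domain and is anchored in the membrane by a lipid, also stood in all 4 tables, with peaks annotated to introns. Its intron 1 position had an LLR of 7.17 in LPS-up and 7.28 in Mel-down. Its other peaks lay in intron 2 (Mel-down, 3.88), intron 4 (Mel-up, 3.86, wholly on an exon of a noncoding Cdh13 transcript in GENCODE) and intron 6 (LPS-down, 3.402).

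The highest member values were those of Cdh20 at chr1:104833992-104834273 in intron 1, with 101.7 in LPS-up and 102.8 in Mel-down. A separate position in the same intron, chr1:104886246-104886482, was Mel-up at 18.1, so that Cdh20 was listed in both directions of that comparison. Cdh18, a type II cadherin, held Mel-up peaks in intron 2 (9.20) and intron 3 (2.75). Cdh22 held a peak in intron 1, LPS-down at 4.80. Cdh16 and Cdh19 held 3 peaks between 3.78 and 4.72.

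The Fat, Dchs and Celsr genes held 34 peaks on 7 of 9 annotated genes, and 3 of the 34 lay in introns. No peak was listed for Fat2 or Celsr3. Fat1, a widely expressed Fat cadherin, held 10 peaks over 4 tables. In exon 11, of 4068 bases, Mel-up peaks at bases 317 to 475, 737 to 1157 and 2369 to 2490 had LLRs of 1.58, 5.46 and 14.2. Downstream in the same exon a peak at bases 2867 to 2969 was LPS-down (3.79), and a peak at bases 3582 to 3717 was Mel-down (2.48). Exon 2 held Mel-up peaks with LLRs of 5.24 and 10.3, near its 5′ and 3′ ends. The remaining Fat1 peaks were an exon 9 LPS-down peak (7.70), which overlaps the antisense transcript Gm2366, and exon 30 LPS-up peaks (1.16 and 1.29). Thus the 5 Mel-up peaks of Fat1 lay in exons 2 and 11, and its LPS-up peaks lay in the last part of the coding sequence, with the lowest values.

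Fat4, a partner of Dchs1 in planar polarity, was listed mostly the other way. Exon 10 held an LPS-up peak with an LLR of 5.57 and, further 5′, a peak down in the same comparison with an LLR of 3.32. Exon 18 held LPS-up peaks of 2.15 and 1.62, and the position of the second was Mel-down at 1.86. No Fat4 peak was Mel-up. Fat3 held 1 intron 1 LPS-down peak (3.63) and 1 exon 10 Mel-down peak (3.85), both at the commonest value of their table.

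Dchs1, the ligand of Fat4, held 4 Mel-up peaks and no Mel-down peak. They lay in exon 2 (LLR 3.87 and 2.05), exon 6 (2.60) and exon 17 (1.13). In LPS vs Veh, exons 10 and 14 held up peaks (2.47 and 1.68) and exon 6 a down peak (2.40). The exon 6 Mel-up peak and the exon 10 peak overlap the pseudogene Gm15645 on the opposite strand. Dchs2 held an intron 16 position that was LPS-up (3.78) and Mel-down (3.85), and an exon 20 Mel-up peak (5.42). All 3 values were the commonest of their table.

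Celsr2, a seven-pass cadherin of planar polarity, held 5 peaks under the rule, all in exon 1 of 3368 bases. From the 5′ end, a peak at bases 841 to 969 was LPS-down with an LLR of 5.09. A peak at bases 2416 to 2544 was up (8.10), the next at 2643 to 2861 was down (8.51), and that at 3080 to 3205 was up (5.43). The last of these overlapped a Mel-down position with an LLR of 6.29. Up and down peaks of the same comparison therefore alternated along 1 exon, less than 100 bases apart between bases 2544 and 2643. Celsr1 held 2 peaks in exon 1, LPS-up (1.20) and Mel-up (3.67), at separate positions.

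**Figure D2:**
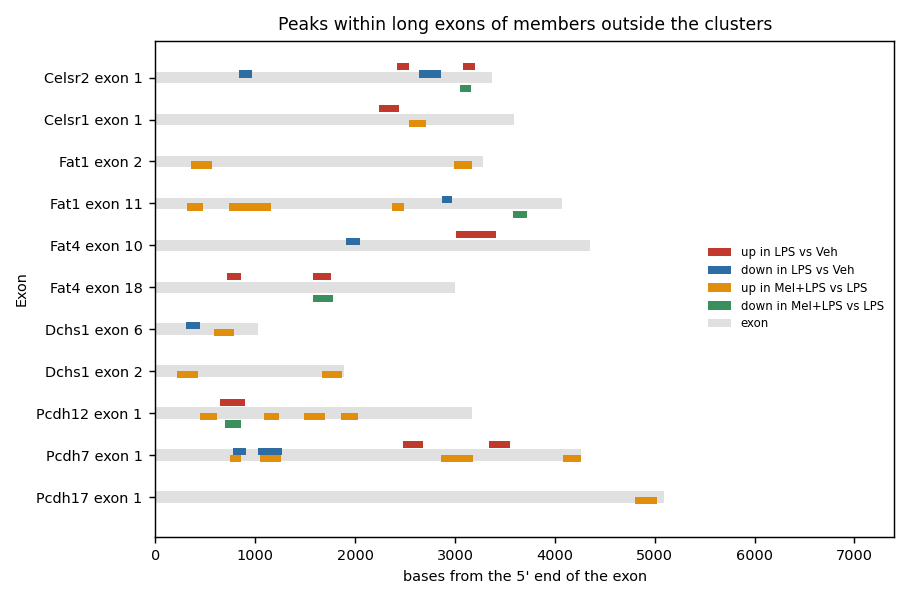
Peaks are drawn to scale as bases from the 5′ end of the exon (grey), coloured by table, for long exons of Celsr, Fat, Dchs and scattered protocadherin genes. Celsr2 exon 1 shows LPS-up (red) and LPS-down (blue) peaks in alternation, and Fat1 exon 11 shows 3 Mel-up peaks (orange) 5′ of the down peaks.

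The scattered protocadherins held 37 peaks on 7 of 12 annotated genes. Pcdh17, a delta2 protocadherin, held 1 peak, Mel-up with an LLR of 16.7. It lay at bases 4807 to 5026 of an exon 1 of 5091 bases. Pcdh12, known from vascular endothelium and placental trophoblast, held 6 peaks, all in exon 1 of 3167 bases. The 4 Mel-up peaks had LLRs of 1.37, 3.76, 2.91 and 2.55. Between the 2 most 5′ of them, a position was LPS-up (2.73) and Mel-down (1.60). Pcdh18 held 3 peaks in 3 tables at separate positions, with LLRs of 2.29 (LPS-up), 2.34 (Mel-up) and 1.21 (Mel-down, 3′UTR). Pcdh1, Pcdh15 and Pcdh19 held 4, 3 and 1 peaks, with LLRs from 1.29 to 4.95, and those of Pcdh15 were intronic.

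Pcdh7, a delta1 protocadherin, held 19 peaks, the largest number of any member. They were 6 LPS-up, 4 LPS-down, 5 Mel-up and 4 Mel-down, with LLRs from 1.27 to 3.85. The start of exon 1 was LPS-down (1.42 and 1.95) and Mel-up (1.27 and 2.97) at overlapping positions, where 4932441J04Rik is transcribed from the opposite strand. Further 3′ in the exon, LPS-up peaks (1.40 and 1.73) alternated with Mel-up peaks (1.32 and 2.78). Another 10 of the 19 peaks lay in introns 1 to 3, with 8 of the 10 at 3.78, 3.85 or 3.63, the commonest values of their tables.

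**Figure D3:**
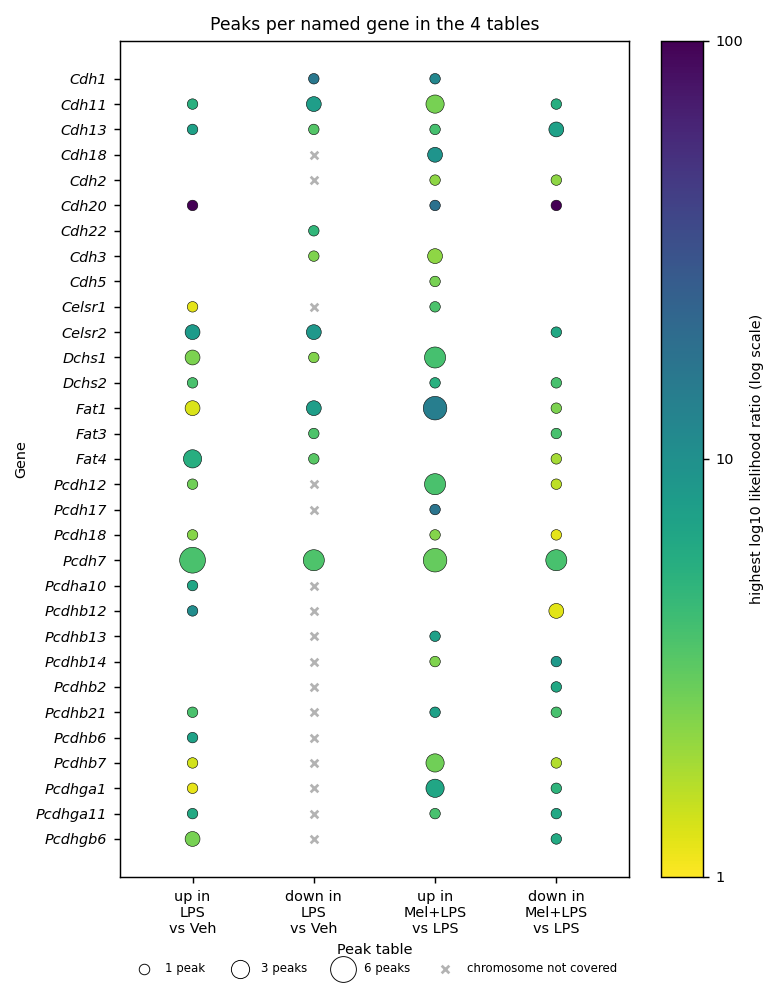
Each circle is a gene and table, with the number of peaks as its area and the highest LLR as its colour (log scale); grey crosses mark genes on chromosomes that the LPS-down table does not cover here. Pcdh7, Fat1, Cdh11 and Cdh13 are the 4 genes with a circle in every column.

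The clustered protocadherins held 75 of the 175 member peaks, with 6 in the alpha cluster, 44 in the beta cluster and 25 in the gamma cluster. They lie close together on chromosome 18, and their variable exons are similar in sequence, so that reads could be assigned to the wrong member. Beta genes held 19 LPS-up peaks on 14 genes, with a median LLR of 1.84 (1.25 to 10.7). In Mel+LPS vs LPS they held 15 up peaks on 10 genes (median 2.47, 1.05 to 7.42) and 10 down peaks on 8 genes (median 1.53, 1.16 to 8.44). Gamma genes held 9 LPS-up peaks (median 3.20, 1.19 to 6.19), 12 Mel-up peaks (3.72, 1.06 to 6.52) and 4 Mel-down peaks (5.54, 2.15 to 6.29). The alpha genes Pcdha1, Pcdha3 and Pcdha10 held 4 LPS-up peaks (3.82), 2 Mel-down peaks (3.87) and no Mel-up peak. The Pcdha1 peaks, LPS-up (3.78) and Mel-down (3.85), lay in intron 3, and their assigned gene was the C-type gene Pcdhac2. A transcript of Gm10544 overlaps both. These peaks and an LPS-up peak of Pcdha3 were at the commonest value of their table.

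The highest values in the beta cluster belonged to genes listed in different directions. Pcdhb12 had an LLR of 10.7 in LPS-up, at bases 232 to 512 of its variable exon, and Mel-down peaks of 1.24 and 1.16 on either side. The antisense transcript Gm37446 overlaps these 3 peaks. Pcdhb6 had 7.10 in LPS-up. Pcdhb13 and Pcdhb21 had 7.42 and 7.33 in Mel-up, while Pcdhb14 and Pcdhb2 had 8.44 and 6.29 down in that comparison. Pcdhb14 also held an up peak (2.42), at bases 1598 to 1794 of its variable exon and thus 3′ of its down peak at bases 1100 to 1216. Pcdhb7 held 3 Mel-up peaks (2.52, 2.73 and 1.19), 1 down peak (1.69) and 1 LPS-up peak (1.37) along an exon of 3501 bases.

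In the gamma cluster, Pcdhga11 had 6.19 in LPS-up and 6.29 in Mel-down at the same bases, 760 to 923 of its variable exon. Its 3′ part held a Mel-up peak of 3.85. Pcdhga1 held 3 Mel-up peaks (3.88, 6.52 and 1.48). The 3′ end of its variable exon was LPS-up (1.19) and Mel-down (5.00). A position of Pcdhgb6 was likewise LPS-up (2.56) and Mel-down (6.07). In Pcdhga8 an LPS-up peak (3.38) overlapped a Mel-up peak (3.59), so that the position was up in both comparisons. In the alpha cluster the peak annotated to Pcdha10, LPS-up at 6.51, lay on an exon that GENCODE gives to Pcdha11. The C-type genes, which were not counted, held 5 LPS-up peaks, 4 Mel-up peaks and 2 Mel-down peaks on 4 genes.

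**Figure D4:**
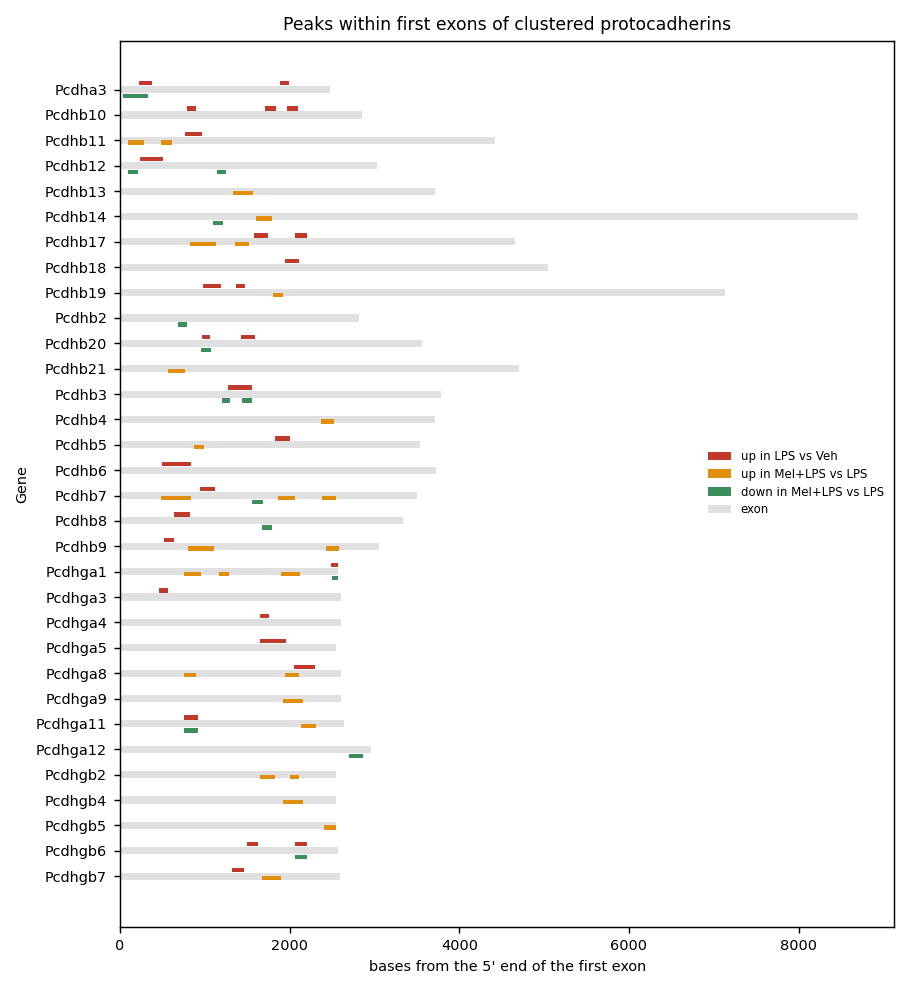
Peaks in the first exons of clustered protocadherins, as bases from the 5′ end of the exon (grey) and coloured by table; LPS-down peaks are not covered for these genes. Peaks are spread along the exons, with median positions at 37.3% (LPS-up), 47.7% (Mel-up) and 36.2% (Mel-down) of the exon.

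Several members were listed in both directions of a comparison. In LPS vs Veh on chromosomes 1 to 9 these were 7 of 15 member genes (46.7%), beside 18.8% of all 5046 genes. They were Cdh11, Cdh13, Celsr2, Dchs1, Fat1, Fat4 and Pcdh7. In Mel+LPS vs LPS they were 14 of 51 member genes (27.5%), beside 16.8% of all 9495 genes. Within these 14 were Cdh2, Cdh11, Cdh13, Cdh20, Dchs2, Fat1, Pcdh7, Pcdh12 and Pcdh18, and the other 5 were clustered genes. Only a gene with more than 1 peak in a comparison can be listed in both of its directions. In LPS vs Veh on chromosomes 1 to 9, every member gene outside the 7 held just 1 peak. The share there was thus the highest that these peak numbers allow. The part of peak number in the shares of both comparisons was not tested.

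Exon and UTR peaks made up 80.0% of LPS-up, 70.6% of LPS-down, 91.9% of Mel-up and 63.9% of Mel-down member peaks. The rule leaves out intergenic peaks, so the matching shares are those over all peaks tied to a gene in the same way, which were 71.5%, 72.7%, 84.4% and 62.9%. Member shares were thus above them in LPS-up and Mel-up, and about level in LPS-down and Mel-down. With an LLR of at least 3, the LPS-up member share was 57.7%, and its matching share was not computed. The median exon that held an exon or UTR peak of a member was 3034 bases long, beside 491 bases over all exon and UTR peaks tied to a gene, and 87.1% against 38.4% of these exons were longer than 1000 bases. The median was 3357 bases for Fat, Dchs and Celsr genes and 172 bases for Cdh genes. The part of exon length in the counts above was not tested.

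**Figure D5:**
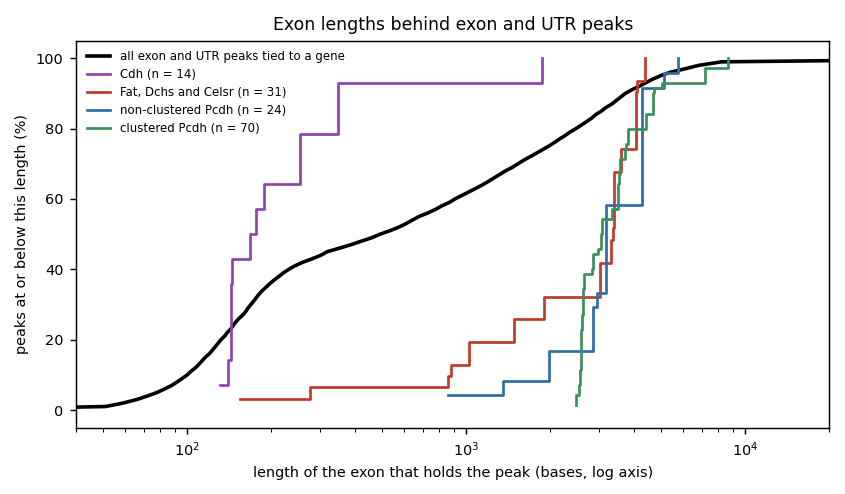
Cumulative share of exon and UTR peaks by the length of the exon that holds the peak (log x axis), for all peaks tied to a gene (black) and for members by subfamily. The curve of the Cdh genes lies mostly below 400 bases, and those of the other subfamilies rise around the overall member median of 3034 bases.

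Peaks named for an exon did not always lie on it. The centre was on the exon in 128 of 139 exon and UTR member peaks, beside 60.2% of such peaks over all genes. The 11 exceptions were 10 Cdh peaks and the Dchs1 exon 17 peak, and all 11 ran past the 3′ end of the exon into the intron. Over all genes, 95.7% of the 7487 peaks with the centre off the exon left it on the 3′ side, so this placement was not particular to cadherins. By the annotation, 4 of 175 member peaks (2.29%) lay in 3′UTRs, beside 20.6% of all peaks and 12.8% of peaks tied to a gene. Another 33 peaks, outside the rule, were centred on GENCODE exons of family genes but assigned to other genes or placed outside the gene body. By their place on GENCODE transcripts, and not by the annotation, 21 of the 33 lay in 3′UTRs. The part of these peaks in the low 3′UTR share was not tested. They were 14 LPS-up, 6 LPS-down, 7 Mel-up and 6 Mel-down peaks, and those in 3′UTRs were 6, 6, 5 and 4. Among these, the 3′UTR of Cdh3 was LPS-down (4.26) and Mel-up (4.09), as was that of Cdh5 (1.33 and 1.95). The 3′UTR of Cdh1 was LPS-down (1.496), that of Dchs2 was LPS-down (6.46), and that of Pcdh17 was Mel-up (6.41). Other 3′UTRs were listed the opposite way, with that of Cdh2 LPS-up (1.26) and Mel-down (1.996) and that of Pcdh7 LPS-up (1.90) and Mel-down (2.39). The 3′UTR of Celsr2 was down in both comparisons, at 1.09 in LPS-down and 1.80 in Mel-down. Cdh6 and Cdh10 held no member peak but held peaks outside the rule.

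The exonic bases of member peaks held 23.6 DRACH matches per 1000 bases on the transcript strand, beside 24.6 over all exon and UTR peaks tied to a gene. At least 1 match lay in 97.1% of member peaks and 79.4% of all, with more exonic bases per peak in members. The shorter motif GGAC, which is part of DRACH when A, C or T follows, occurred 7.72 times per 1000 bases in members and 5.52 times in all peaks, and at least once in 68.3% and 42.7% of these peaks. It occurred 8.84 times per 1000 bases in clustered protocadherins and 6.51 times in the other members. A match in these windows does not show a methylated site.

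Partners of the family were counted in the same tables, again with LPS-down peaks on chromosomes 1 to 9 only. Of 15 catenins and plaque proteins, 13 held a peak, with 11 LPS-up, 2 LPS-down, 19 Mel-up and 8 Mel-down peaks. The 13 genes held LPS-up, Mel-up and Mel-down peaks in 8, 8 and 5 cases (61.5%, 61.5% and 38.5%), beside the 46.7%, 55.6% and 37.6% of all genes given above. On chromosomes 1 to 9, 2 of 6 (33.3%) held an LPS-down peak, beside 48.0%. Ctnnb1, which encodes beta-catenin, held 4 of the Mel-up peaks, with LLRs of 1.17 to 1.76, and 1 LPS-down peak of 1.01. Ctnnd1 (p120-catenin), which stabilises cadherins at the surface, held 2 Mel-up peaks of 2.05 and 4.75. Ctnna1 (alpha-catenin) held an intron 8 position with 7.82 in LPS-up and 7.94 in Mel-down, and 4 Mel-up peaks of 1.37 to 2.07. It also held an exon 3 LPS-up peak (1.73) and another intron 8 peak, Mel-down at the commonest value (3.85). Among the peaks of Ctnna3, an intron 5 position likewise had 7.55 in LPS-up and 7.67 in Mel-down. Jup and Pkp1 held none. All 12 polarity and Hippo partners held a peak, with 11 LPS-up, 4 LPS-down, 10 Mel-up and 7 Mel-down peaks. The counts of 13 of 15 and all 12 have no background, since the share of all annotated genes with a peak was not computed. The genes with LPS-up, Mel-up and Mel-down peaks numbered 7, 6 and 6 of 12 (58.3%, 50% and 50%), beside the same 46.7%, 55.6% and 37.6%. On chromosomes 1 to 9, 4 of 6 (66.7%) held an LPS-down peak, beside 48.0%. The highest values were those of Fzd3, a Frizzled receptor of planar polarity, with 8.67 in Mel-up and 6.29 in Mel-down at separate positions, and of Prickle2, with 6.19 in LPS-up. Vangl1 had 5.76 in LPS-down, 1.48 in LPS-up and 1.33 in Mel-down. Fjx1, a kinase of Fat and Dchs cadherin domains, had 1.68 in LPS-down and 2.34 in Mel-up at 1 position of its 3′UTR.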

How the data were processed

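The m6A-seq libraries of 3 treatments were processed by the authors with Fastp, STAR 2.5.2a, exomePeak2, MACS2 3.4 and ChIPseeker 1.22.1 on mm10, which has the coordinates of GRCm38. The deposited tables hold, per differential peak, a score (the log10 likelihood ratio of MACS2). How replicates were combined is not given in the sources used here, the tables hold no value per library, and the read depth behind a peak is unknown. Doses and age were taken from the labels and the study's methods.

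From the tables, peaks were tied to genes by the annotation and by the assigned gene with the peak centre inside it. An incomplete line (1) was dropped, and LPS-down peaks beyond chromosome 9 were left out. Exon positions and sequences came from GENCODE M21, with coding transcripts preferred, and gene symbols from RefSeq. No test was possible, so members are described by counts, medians and ranges beside all peaks. Genes named were the 8 highest per table, those in at least 3 tables, and the main classical, Fat, Dchs and Celsr genes. Cdh16, Cdh19, Pcdh1, Pcdh15, Pcdh19, Pcdha1, Pcdha3, Pcdhga8 and the peaks outside the rule were chosen after their values were seen. The members and lists were chosen with earlier results of these data known. Membership, motif and coordinate code was tested on simulated data. Python 3.11.15, pandas 2.3.3 and scipy 1.17.1 were used.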

Additional observations from a re-analysis of the deposited data

How the results depend on the processing

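No paired analysis was possible because the tables hold 1 value per peak and comparison and no value per replicate. Of 97 recomputed values, 76 stayed within 1.5 times the count or inside the 95% interval of the share, median or density given above, and 21 did not. With an LLR of at least 3, member peaks numbered 26 LPS-up, 11 LPS-down, 24 Mel-up and 22 Mel-down, on 21, 9, 19 and 19 genes. These were 43.3%, 64.7%, 38.7% and 61.1% of member peaks, beside 48.7%, 45.9%, 32.7% and 50.8% of all peaks. With at least 6 they numbered 7, 4, 9 and 7, on 7, 4, 8 and 7 genes. These were 11.7%, 23.5%, 14.5% and 19.4% of member peaks, beside 14.8%, 12.7%, 11.7% and 14.2% of all peaks. With at least 3, the share of up peaks in Mel+LPS vs LPS was 52.2% (48.4% of all peaks). The share of exon and UTR peaks among LPS-up member peaks was then 57.7%, and that over all peaks was not computed at this limit. Tied by the assigned gene alone, LPS-down peaks numbered 8 on 5 genes. The median Mel-up LLR was 3.67 with 1 peak per gene. GGAC in place of DRACH gave 7.72 matches per 1000 bases. Alternatives chosen after seeing the data were the C-type genes, a stricter reading without the gamma cluster, the peaks on GENCODE exons, and leaving out the commonest value of each table. All of these stayed within the limits above. Read assignment among clustered protocadherins, the level of each RNA and the spread between mice were not measured here, and at low LLRs the direction of a peak has no replicate check.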
